A study of Mus musculus with 14 samples.

Results

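The liver transcriptome of BT3xHuBL mice was compared with that of HuBL mice, using the 4 BT3xHuBL and 4 HuBL liver libraries among the 14 libraries of the series. Libraries were chosen by the tissue and genotype in their labels, and every feature of the liver count table was considered. The other 6 libraries came from aorta, 3 per genotype. Both genotypes had been kept for 52 weeks on standard laboratory chow. Genotypes are labelled by strain name without an explanation. As background from the literature on these strains, HuBL stands for mice that express human apolipoprotein B100 from a transgene, and BT3 for mice whose T cells express a transgenic receptor specific for that protein. On that reading all 8 livers share the human transgene, with the rest of their engineered background not described here, and the groups differ in the T cell receptor, which T cells carry and hepatocytes do not. The series title links protective immunity and interleukin-10 with the stability of atherosclerotic plaques.

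The liver makes most of the plasma lipoproteins, including apolipoprotein B, the antigen of interest here. It also answers circulating cytokines. Interferons act through STAT and IRF factors to raise antiviral proteins, MHC class I molecules and the immunoproteasome that cuts their peptides, and chemokines that draw T cells. Hepatocytes divide metabolic work by position, with urea synthesis near the portal vein and glutamine synthesis near the central vein.

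Each library held 13228123 to 17992459 counts, and 12453 of 24732 features passed the filter on low counts. Values are CPM, TMM-scaled counts over the library total in units of 1e+06 counts, and log2 fold changes are BT3xHuBL over HuBL with their standard error (SE). Total counts, the number of features with a count and the share of the 10 most abundant features gave exact permutation p = 0.657, 0.286 and 0.686 between the genotypes (two-sided; 4 against 4 libraries cannot go below 0.0286). Albumin and the other secreted hepatocyte proteins on a list of 24 tested genes summed to 156168 to 205231 CPM, so hepatocyte transcripts made up a large share of every library. The labels give no sex. Counts of Xist were 0 to 3 and counts of the Y-linked Ddx3y were 1241 to 2420, so all 8 livers looked male. Whether each library is a different mouse is not labelled, and the spread behind every p-value may therefore be technical in part. BT3xHuBL replicate 4 stood apart through acute phase genes: Saa1, which encodes serum amyloid A, was at 131, 130.3, 87.9 and 82.2 CPM in the HuBL livers and 72.1, 74.4, 73.2 and 2418 CPM in the BT3xHuBL livers, and results that rest on this library are given with and without it.

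No gene passed edgeR's quasi-likelihood test at an adjusted p of 0.05 (0% of 12453 features called). The smallest adjusted p was 0.131, while 711 features (5.71%) were higher and 670 (5.38%) lower in BT3xHuBL at an unadjusted p of 0.05. With BT3xHuBL replicate 2 left out edgeR called 5 features, with replicate 3 left out 2, and with any other library left out 0. limma-voom called 0 features, with 1460 at an unadjusted p of 0.05. DESeq2 called 127 of 12439 features, 35 higher (0.281%) and 92 lower (0.74%). As a description beside the test, 372 features (2.99%) had every BT3xHuBL library above every HuBL library and 446 (3.58%) had every BT3xHuBL library below, so 45.5% of these features were higher. Scaling by total counts alone gave 439 higher and 265 lower, 62.4% higher. Without BT3xHuBL replicate 4, 695 features (5.52% of 12601) were separated in this sense and higher, and 691 (5.48%) lower. The words higher and lower in what follows describe values and not calls of the test, and "separated" means that the ranges of the genotypes did not meet.

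Interferon-responsive genes were lower in BT3xHuBL livers. All 31 tested genes on a list of MHC class I genes and interferon gamma targets had a negative log2 fold change, with a median of −0.58, as did all 34 tested type I interferon-stimulated genes, with a median of −0.75. The median of all features was 0.00915. On the first list 15 genes were separated and lower (48.4%, beside 3.58% of all features) and on the second 9 (26.5%), and none on either list was separated and higher. None passed edgeR, and DESeq2 called 13 and 5 of them lower (beside 0.74% of features). Without BT3xHuBL replicate 4 the separated and lower genes numbered 15 and 9 (beside 5.48% of features), and the medians were −0.51 and −0.58.

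Regulatory sequence next to 3 of these genes is shown because it carries the letters through which interferon-activated factors are known to act. In windows from 250 bases before to 50 after the start of transcription (RefSeq, GRCm38.p6), the ISRE letters (GAAA, any 2 bases, GAAA) and the GAS letters (TTC, any 3 bases, GAA) were searched on both strands. Capitals mark the matches, and each stretch is given 5′ to 3′ on the strand of the gene.
Bst2, ISRE, chr8:71537562-71537627, minus strand: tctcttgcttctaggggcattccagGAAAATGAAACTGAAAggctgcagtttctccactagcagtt
Cxcl10, ISRE, chr5:92349068-92349127, minus strand: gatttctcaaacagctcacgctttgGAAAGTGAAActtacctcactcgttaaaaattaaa
Irf1, GAS, chr11:53769899-53769957, plus strand: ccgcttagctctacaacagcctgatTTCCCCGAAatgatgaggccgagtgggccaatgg

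The Bst2 stretch holds 2 overlapping ISRE matches, starting at −130 and −124 from the start of transcription, and a GAS match at −136 that overlaps the first of them. The Cxcl10 match lies at −213 and the Irf1 match at −90. ISRE letters were present in the windows of 3.99% of the 27025 genes in the promoter table, of 13 of 23 matched type I interferon genes (56.5%) and of 10 of 22 matched MHC class I and interferon gamma genes (45.5%). GAS letters were present for 9.55% of all genes, 4 of 23 (17.4%) and 7 of 22 (31.8%). Both lists hold genes known to answer interferon, so these shares describe the lists and do not bear on what differed between the livers. Among the 15 lower genes of smallest p, 2 of 12 matched genes held the ISRE letters (16.7%).

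Bst2, the antiviral membrane protein tetherin (chr8:71534255-71537456, GENCODE M21, GRCm38, protein coding), was at 722, 610.2, 661 and 661 CPM in the HuBL livers and 423, 451, 486 and 410.5 CPM in the BT3xHuBL livers. The lowest HuBL liver lay well above the highest BT3xHuBL liver, and the log2 fold change was −0.58 (SE 0.10), with an edgeR adjusted p of 0.134 and a DESeq2 adjusted p of 7.12e-07. H2-D1, a heavy chain of MHC class I (chr17:35262730-35267499, protein coding), was at 691, 680.0, 586 and 584 CPM in the HuBL livers and 376, 459.7, 424 and 355 CPM in the BT3xHuBL livers, a log2 fold change of −0.65 (SE 0.11). Other class I genes were lower as well: H2-K1 averaged 3105 ± 283 CPM in HuBL and 2159 ± 294 CPM in BT3xHuBL (SD, n = 4 each), and B2m, the light chain, averaged 3954 ± 399 CPM in HuBL and 2967 ± 268 CPM in BT3xHuBL. Classical class I genes resemble each other, so reads may be shared among them.

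The immunoproteasome replaces subunits of the standard proteasome under interferon. Psmb8, one of its catalytic subunits, was at 94.5, 106, 101 and 88.7 CPM in the HuBL livers and 70.4, 78.99, 64.05 and 69.2 CPM in the BT3xHuBL livers, a log2 fold change of −0.46 (SE 0.09). Psmb9, another of these subunits, averaged 49.5 ± 8.19 CPM in HuBL and 32.7 ± 2.44 CPM in BT3xHuBL, and Psme2, a subunit of the activator that caps the proteasome, averaged 54.3 ± 2.90 CPM in HuBL and 41.2 ± 1.43 CPM in BT3xHuBL. All 3 genes were separated. All 25 listed subunits of the constitutive proteasome also had negative log2 fold changes, with a median of −0.13. Of the 25, 2 were separated and lower (8%, beside 3.58%). Psmb8 and Psme2 were named for their small p and Psmb9 after its values were seen. These 3 genes therefore cannot show whether the immunoproteasome differed more than the constitutive subunits. The peptide transport genes Tap2 and Tapbp were separated as well.

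Ubd, a ubiquitin-like modifier induced by interferon gamma (chr17:37193892-37196095, protein coding), was at 9.02, 6.87, 8.96 and 5.23 CPM in the HuBL livers and 3.28, 2.58, 3.42 and 1.84 CPM in the BT3xHuBL livers. Its log2 fold change was −1.43 (SE 0.24) and its adjusted p 0.134 in edgeR and 3.72e-05 in DESeq2. Mx2 belongs to a family of antiviral GTPases and is annotated as a polymorphic pseudogene in GENCODE M21. It was at 66.8, 96.5, 108 and 60.9 CPM in the HuBL livers and 39.2, 54.5, 32.4 and 24.7 CPM in the BT3xHuBL livers. HuBL replicates 2 and 3 were the highest, BT3xHuBL replicate 2 came closest to the HuBL range, and the groups did not overlap. Ifi35 averaged 84.8 ± 7.73 CPM in HuBL and 61.8 ± 6.49 CPM in BT3xHuBL. Apol9b, an apolipoprotein L family member that is also interferon-responsive and has a close copy, averaged 301 ± 27.6 CPM in HuBL and 193 ± 24.2 CPM in BT3xHuBL. Other separated and lower genes on the 2 lists were Gbp5, Gbp6, Gbp10, Socs1, Ifi27, Oas2, Oas3, Rsad2, Xaf1 and Cmpk2.

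Irf1, a transcription factor of the interferon response, was lower too. It was at 77.2, 70.3, 82.8 and 68.5 CPM in the HuBL livers and 60.6, 55.8, 57.1 and 56.3 CPM in the BT3xHuBL livers, a log2 fold change of −0.38 (SE 0.08), and was separated. Ifng itself had 1, 2, 6 and 2 counts in the HuBL livers and 0, 1, 2 and 1 in the BT3xHuBL livers, too few to be tested.

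**Figure D1:**
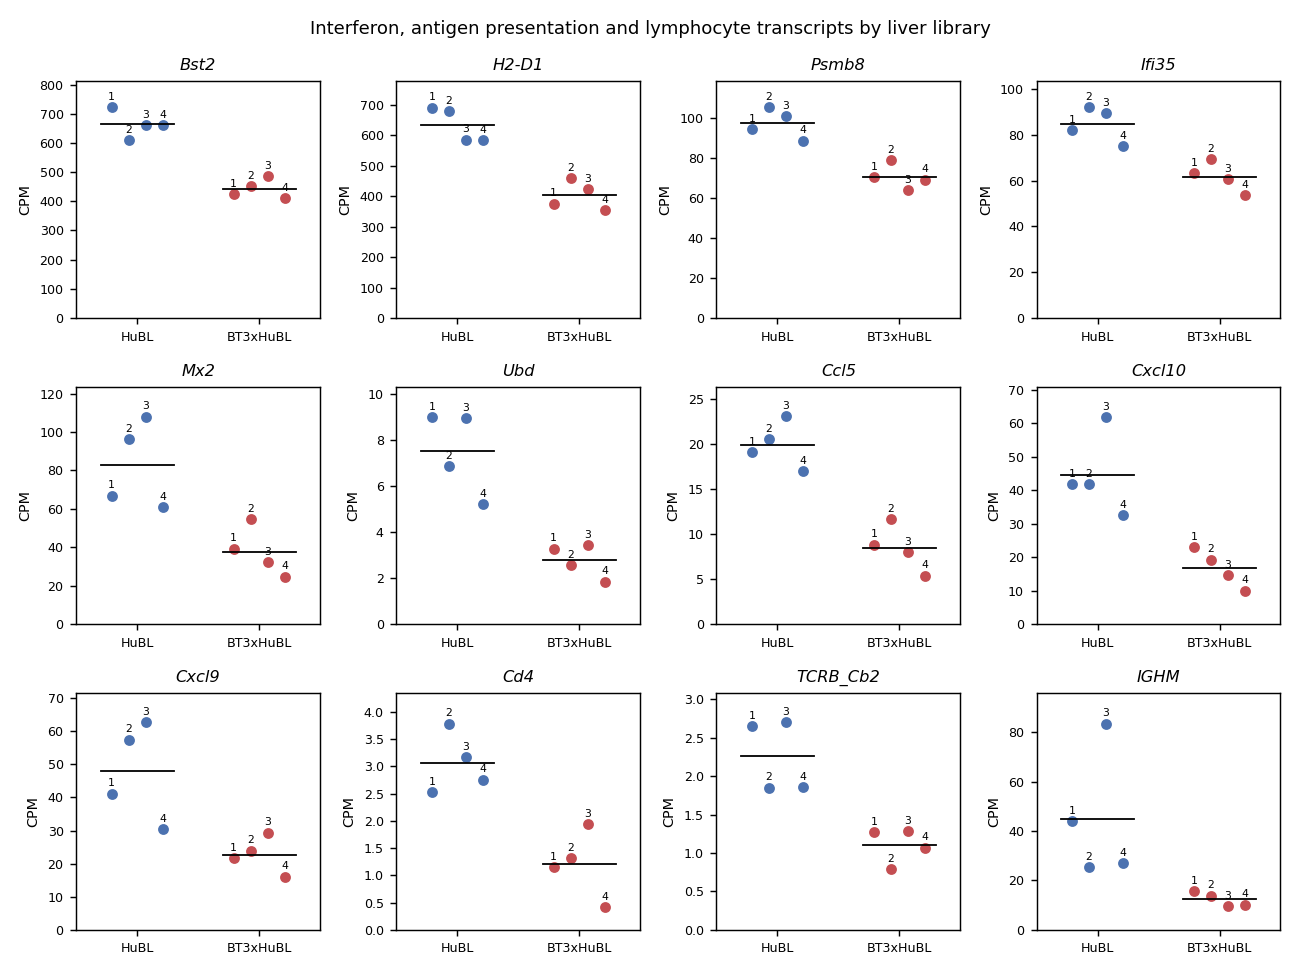
CPM (vertical axes, from 0) of interferon-responsive, chemokine and lymphocyte genes in each HuBL (blue) and BT3xHuBL (red) liver library; digits are replicate numbers and lines are means of 4. In every panel all 4 BT3xHuBL livers lie below all 4 HuBL livers, as for Bst2, at 664 CPM on average in HuBL and 443 CPM in BT3xHuBL. TCRB_Cb2 and IGHM are the table's names for Trbc2 and Ighm.

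Chemokines that attract T cells were lower too. Ccl5, which is made by T cells and NK cells (chr11:83525778-83530518, protein coding), was at 19.1, 20.5, 23.03 and 16.9 CPM in the HuBL livers and 8.80, 11.6, 7.93 and 5.35 CPM in the BT3xHuBL livers, a log2 fold change of −1.24 (SE 0.20). Its adjusted p was 0.134 in edgeR and 1e-05 in DESeq2, and 0.0308 in edgeR without BT3xHuBL replicate 2. Cxcl10 was at 41.8, 41.8, 61.9 and 32.5 CPM in the HuBL livers and 23.1, 19.2, 14.7 and 9.94 CPM in the BT3xHuBL livers, a log2 fold change of −1.41 (SE 0.28). Cxcl9 averaged 47.98 ± 14.9 CPM in HuBL and 22.8 ± 5.51 CPM in BT3xHuBL. Cxcl9 and Cxcl10 are ligands of one receptor, CXCR3, are induced by interferon gamma and are also on that list. Of 26 tested chemokine and receptor genes, 9 were above and 17 below 0, and 4 were separated and lower (15.4%, beside 3.58%), the fourth being Ccl4. Tnf, the inflammatory cytokine, averaged 1.16 ± 0.260 CPM in HuBL and 0.441 ± 0.266 CPM in BT3xHuBL.

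Transcripts of T cells and NK cells were scarce and mostly lower in BT3xHuBL. Of 25 tested markers 24 had a negative log2 fold change, with a median of −0.70 (−0.51 without BT3xHuBL replicate 4), 10 had an unadjusted p under 0.05 and 5 were separated and lower (20%, beside 3.58% of all features). The list summed to 33.5 to 67.1 CPM in HuBL and 26.6 to 36.9 CPM in BT3xHuBL. In bulk tissue, fewer cells of a type and less RNA per cell cannot be told apart. The part of these cells in the lower interferon-responsive transcripts was not tested.

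Cd4, the coreceptor of helper T cells, was at 2.52, 3.78, 3.16 and 2.76 CPM in the HuBL livers and 1.15, 1.32, 1.94 and 0.416 CPM in the BT3xHuBL livers, which was 40, 49, 42 and 49 counts against 19, 20, 30 and 7. Bcl11b, a factor of the T cell lineage, averaged 1.21 ± 0.343 CPM in HuBL and 0.439 ± 0.0218 CPM in BT3xHuBL, and Lag3, an inhibitory receptor that binds MHC class II, averaged 4.78 ± 0.554 CPM in HuBL and 2.46 ± 0.548 CPM in BT3xHuBL. Among receptor constant genes, Trbc2 (TCRB_Cb2 in the table) was at 2.65, 1.85, 2.71 and 1.86 CPM in the HuBL livers and 1.27, 0.793, 1.29 and 1.07 CPM in the BT3xHuBL livers and was separated. Trbc1 and Trac were not: Trbc1 averaged 1.14 ± 0.497 CPM in HuBL and 1.004 ± 0.139 CPM in BT3xHuBL and Trac 1.03 ± 0.442 CPM in HuBL and 0.729 ± 0.293 CPM in BT3xHuBL. The log2 fold change of Trbc1 was −0.18, and it turned to 0.08 without HuBL replicate 3.

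The transgenic receptor itself left little trace in liver. If the BT3 receptor uses the beta chain segment TRBV31 (Vβ14), as in earlier work on such T cells, its transcripts should appear under that segment, whose counts were 0 in each HuBL liver and 2, 3, 0 and 1 in the BT3xHuBL livers. In aorta the same segment had 10, 0 and 1 counts in HuBL and 32, 38 and 2 in BT3xHuBL. Libraries read from the 3′ end cover variable segments poorly, and at this depth a count of 0 allows 0.169 to 0.232 CPM in a HuBL liver. Interleukin-10, the cytokine of the series title, had 3, 4, 8 and 5 counts in HuBL livers and 3, 3, 5 and 1 in BT3xHuBL livers. Foxp3, which marks regulatory T cells, had 1, 5, 1 and 3 counts against 0, 1, 3 and 0. Neither passed the count filter. Il10ra, the receptor chain, averaged 10.3 ± 1.27 CPM in HuBL and 7.45 ± 2.18 CPM in BT3xHuBL, with overlapping genotypes, and Ikzf2, a factor of regulatory T cells, averaged 1.81 ± 0.385 CPM in HuBL and 0.971 ± 0.329 CPM in BT3xHuBL, also with overlap.

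B lineage transcripts pointed 2 ways. Ighm, the IgM heavy chain, was at 43.98, 25.5, 83.5 and 27.1 CPM in the HuBL livers and 15.8, 13.8, 9.55 and 10.2 CPM in the BT3xHuBL livers, a log2 fold change of −1.86 (SE 0.42), and HuBL replicate 3 was the highest. Bank1, a B cell adaptor, averaged 3.05 ± 0.376 CPM in HuBL and 2.03 ± 0.579 CPM in BT3xHuBL. Ighg2b, an IgG heavy chain, was at 4.92, 4.94, 4.44 and 1.63 CPM in the HuBL livers and 9.53, 6.41, 9.998 and 4.28 CPM in the BT3xHuBL livers, so its log2 fold change was positive, 0.93 (SE 0.37), and the genotypes overlapped. Igkc, the kappa light chain constant gene, averaged 34.04 ± 12.1 CPM in HuBL and 23.6 ± 3.81 CPM in BT3xHuBL with overlap. Of 18 tested B cell markers 16 were below 0, with a median of −0.33, and 2 were separated and lower (11.1%, beside 3.58%). The list summed to 80.3 to 155 CPM in HuBL and 57.99 to 84.9 CPM in BT3xHuBL. Of 15 tested MHC class II genes 14 lay below 0 and the median was −0.26, with none separated.

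Psat1 and Asns, enzymes of amino acid synthesis, had large fold differences above 0 that were uneven among the BT3xHuBL livers. Psat1, which makes the serine precursor phosphoserine (chr19:15904678-15947337, protein coding), was at 0.252, 0.386, 0.527 and 0.619 CPM in the HuBL livers and 8.98, 0.925, 4.13 and 4.88 CPM in the BT3xHuBL livers. Asns, asparagine synthetase, was at 0.694, 1.003, 1.35 and 0.506 CPM in the HuBL livers and 17.8, 0.661, 11.7 and 8.69 CPM in the BT3xHuBL livers. In both genes BT3xHuBL replicate 2 lay close to the HuBL livers, inside their range for Asns, and replicates 1, 3 and 4 lay far above. The log2 fold changes were 3.38 (SE 0.65) and 3.48 (SE 0.88), with adjusted p 0.196 and 0.300 in edgeR and 9.15e-06 and 0.0117 in DESeq2. Without BT3xHuBL replicate 2 they were 3.72 and 3.87, with edgeR adjusted p of 0.00947 and 0.00662.

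The lists that hold Psat1 and Asns did not share their direction. Of 26 genes of the unfolded protein and integrated stress responses 13 were above and 13 below 0, and 1 was separated and higher (3.85%, beside 2.99% of all features). Of 25 genes of serine, glycine, methionine and tyrosine metabolism 19 were below 0. Chac1, which degrades glutathione, was at 1.89, 2.78, 2.41 and 1.91 CPM in the HuBL livers and 7.59, 3.31, 2.90 and 7.85 CPM in the BT3xHuBL livers, with replicates 1 and 4 high. Aldh18a1, of proline synthesis, was at 1.45, 1.70, 2.71 and 2.14 CPM in the HuBL livers and 12.3, 2.78, 4.71 and 4.64 CPM in the BT3xHuBL livers, and Aldh1l2, of mitochondrial folate metabolism, was at 0.379, 0.386, 0.0753 and 0.675 CPM in the HuBL livers and 2.19, 0.397, 0.903 and 2.98 CPM in the BT3xHuBL livers. Aldh1l2, Aldh18a1, Irf1, Psmb9, H2-K1, B2m, Saa1 and Saa2 were picked for naming after their values were seen.

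**Figure D2:**
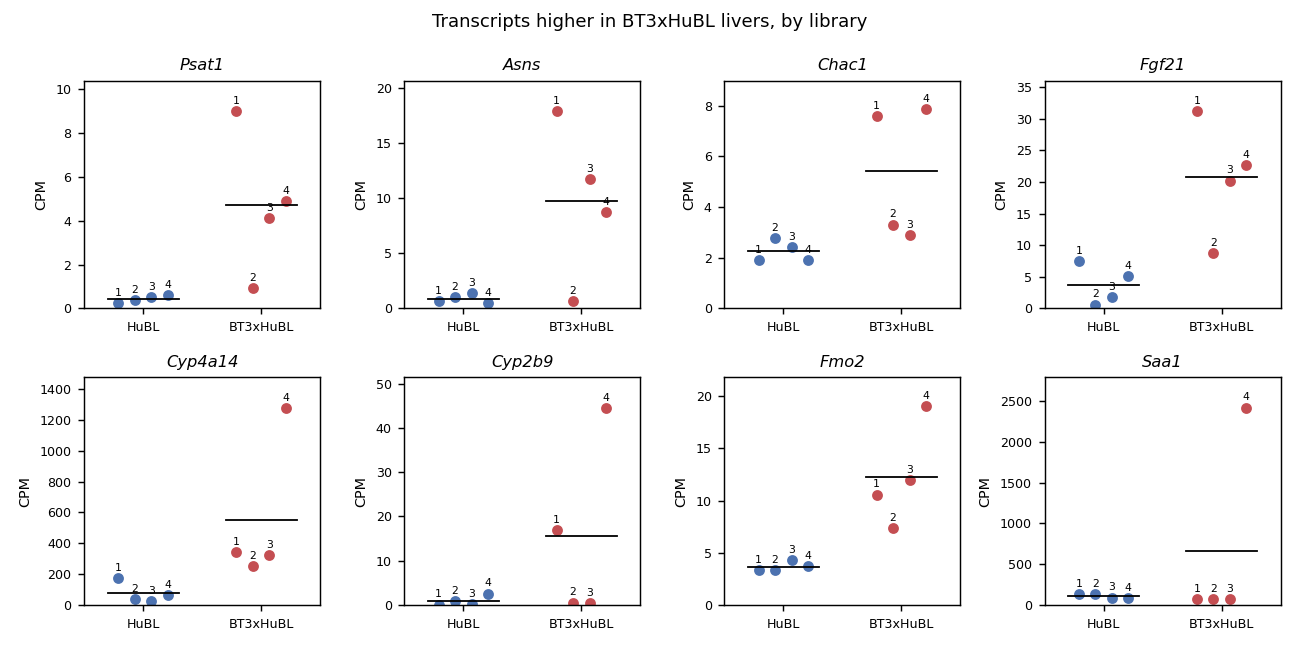
CPM (vertical axes, from 0) of genes with higher means in BT3xHuBL in each HuBL (blue) and BT3xHuBL (red) liver library; digits are replicate numbers and lines are means of 4. BT3xHuBL replicate 2 stays near the HuBL livers for Psat1 and Asns, replicates 1 and 4 carry Cyp2b9, and replicate 4 alone carries Saa1, at 2418 CPM.

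Fatty acid oxidation genes controlled by PPAR alpha, the fasting sensor of hepatocytes, were somewhat higher. Among 24 tested genes 18 lay above 0 (median 0.17), and 3 were separated and higher (12.5%, beside 2.99%): Cyp4a14, Fgf21 and Hadha. Fgf21, a fasting hormone that both PPAR alpha and ATF4 induce, was at 7.51, 0.617, 1.81 and 5.12 CPM in the HuBL livers and 31.1, 8.79, 20.2 and 22.7 CPM in the BT3xHuBL livers, a log2 fold change of 2.42 (SE 0.67). Cyp4a14, a fatty acid omega-hydroxylase, was at 174, 36.7, 25.3 and 63.5 CPM in the HuBL livers and 344, 254, 321 and 1279.9 CPM in the BT3xHuBL livers. Replicate 4 of BT3xHuBL was the highest by far, and the log2 fold change was 2.87 (SE 0.85) with it and 2.03 without it. Acot2, a mitochondrial acyl-CoA thioesterase, averaged 4.31 ± 1.35 CPM in HuBL and 7.35 ± 1.21 CPM in BT3xHuBL with overlap.

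Genes of lipoprotein metabolism were mixed. Apob, at 7389, 7543, 8149 and 7072 CPM in the HuBL livers and 7442, 8245, 7122 and 7738 CPM in the BT3xHuBL livers, did not differ beyond its spread (log2 fold change 0.02 (SE 0.11)), and the mouse gene's count need not reflect the human transgene. Apoe averaged 18248 ± 1536 CPM in HuBL and 16655 ± 1355 CPM in BT3xHuBL with overlap. Lipg, endothelial lipase, averaged 5.46 ± 0.539 CPM in HuBL and 8.27 ± 2.04 CPM in BT3xHuBL, and Lrp1, a hepatic receptor of lipoprotein remnants, averaged 529 ± 82.3 CPM in HuBL and 703 ± 84.6 CPM in BT3xHuBL. Both were separated. Of 24 apolipoprotein and assembly genes 11 were above and 13 below 0, with a median of −0.095, 2 separated and lower (8.33%, beside 3.58%) and 1 higher (4.17%, beside 2.99%). Without BT3xHuBL replicate 4 the median was −0.20, with 5 separated and lower (beside 5.48% of features) and 1 higher (beside 5.52%). With HuBL replicate 1 left out it was 0.00184, and it also came nearer to 0 with HuBL replicate 4, BT3xHuBL replicate 1 or BT3xHuBL replicate 2 left out.

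Cholesterol synthesis showed no separated gene. Of 22 tested genes 12 were above and 10 below 0, with a median of 0.026 and summed levels of 3042 to 4749 CPM in HuBL and 2992 to 5302 CPM in BT3xHuBL. Srebf2, the factor that controls the pathway, averaged 51.2 ± 8.76 CPM in HuBL and 63.7 ± 12.1 CPM in BT3xHuBL, with overlap. Fatty acid synthesis was alike, with 12 of 20 genes above 0 and none separated. In bile acid handling, Akr1d1, a synthesis enzyme, was at 262, 370.1, 236 and 265 CPM in the HuBL livers and 184, 212, 164 and 199.9 CPM in the BT3xHuBL livers, and Abcc2, the canalicular exporter of conjugates, was at 267, 296, 369.8 and 325 CPM in the HuBL livers and 486, 466, 449 and 374 CPM in the BT3xHuBL livers. Both were separated, in opposite directions.

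Genes of periportal hepatocytes were lower, and those of pericentral hepatocytes lay mostly above 0 by a smaller amount. All 16 periportal genes had a negative log2 fold change, with a median of −0.23, and 3 were separated and lower (18.8%, beside 3.58%). Of 16 pericentral genes 13 lay above 0, the median being 0.093, and 2 were separated and higher (12.5%, beside 2.99%). Cyp2f2, a periportal cytochrome, was at 1668, 1288, 1349 and 1168 CPM in the HuBL livers and 941, 980.1, 1065 and 732 CPM in the BT3xHuBL livers, a log2 fold change of −0.56 (SE 0.15). Etnppl, which breaks down phosphoethanolamine, averaged 118 ± 47.7 CPM in HuBL and 57.4 ± 20.5 CPM in BT3xHuBL, and Gls2, liver glutaminase, averaged 291 ± 16.4 CPM in HuBL and 221 ± 55.99 CPM in BT3xHuBL with overlap. At the other end, Glul, glutamine synthetase, was at 917, 966, 939 and 999 CPM in the HuBL livers and 1378, 1126, 1152 and 1208 CPM in the BT3xHuBL livers, and Slc1a2, a glutamate transporter of the same cells, was at 99.7, 117, 107 and 96.3 CPM in the HuBL livers and 162, 149, 118 and 152 CPM in the BT3xHuBL livers. Axin2, a Wnt target, averaged 8.26 ± 1.73 CPM in HuBL and 10.9 ± 0.807 CPM in BT3xHuBL with overlap. The pericentral median ranged from 0.0527 with BT3xHuBL replicate 3 left out to 0.187 with replicate 2 left out. It was 0.157 when BT3xHuBL replicate 4 was omitted, and omitting HuBL replicate 3 raised it by over 1.5 times as well. The periportal median was −0.387 without BT3xHuBL replicate 2 and −0.212 without BT3xHuBL replicate 3.

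Amino acid breakdown was lower in most of its genes. Tat, tyrosine aminotransferase, a glucocorticoid-responsive enzyme (chr8:109990437-109999803, protein coding), was at 872, 1379, 1110.5 and 1183 CPM in the HuBL livers and 609, 619.6, 685 and 586 CPM in the BT3xHuBL livers. The BT3xHuBL livers lay within a narrow band below every HuBL liver, with a log2 fold change of −0.86 (SE 0.14) and an adjusted p of 0.134 in edgeR and 1.32e-06 in DESeq2. Of 20 urea cycle and amino acid breakdown genes 18 lay below 0 and the median was −0.22. Of the 20, 3 were separated and lower (15%, beside 3.58%). The list shares Cps1, Ass1, Arg1 and Hal with the periportal list. Sds is on both the periportal list and that of serine, glycine, methionine and tyrosine metabolism. These lists are therefore not separate observations. Otc, which makes citrulline, averaged 604 ± 39.8 CPM in HuBL and 476 ± 38.997 CPM in BT3xHuBL, and Asl, the next but one enzyme of the cycle, averaged 385 ± 52.4 CPM in HuBL and 288 ± 46.9 CPM in BT3xHuBL with overlap. Of the 25 genes of serine, glycine, methionine and tyrosine metabolism 5 were separated and lower (20%, beside 3.58%), among them Gldc, of glycine breakdown, at 191 ± 10.3 CPM in HuBL and 151 ± 13.2 CPM in BT3xHuBL. Psat1 was the one separated gene of that list that was higher.

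Detoxifying enzymes were mixed. Ugt1a1, which conjugates bilirubin (chr1:88211959-88218997, protein coding), had the smallest p of the higher genes, at 100.5, 114, 111 and 99.9 CPM in the HuBL livers and 156, 168, 149 and 158 CPM in the BT3xHuBL livers, a log2 fold change of 0.57 (SE 0.08), an adjusted p of 0.131 in edgeR and 1.3e-07 in DESeq2. The Ugt1a genes share their last exons, so a library read from the 3′ end cannot tell them apart. Of 36 conjugation enzymes 28 were below 0, with a median of −0.17, and 3 were separated and lower (8.33%, beside 3.58%). Sult1d1, a sulfotransferase, averaged 205 ± 27.5 CPM in HuBL and 137 ± 28.3 CPM in BT3xHuBL with overlap, and Gstk1, a mitochondrial glutathione transferase, averaged 119 ± 8.65 CPM in HuBL and 95.8 ± 7.72 CPM in BT3xHuBL and was separated. Of 33 cytochromes P450 of families 2 and 3, 21 were above and 12 below 0. Cyp2a12 averaged 621 ± 88.4 CPM in HuBL and 453 ± 50.1 CPM in BT3xHuBL. Cyp2c40 was at 0.694, 1.16, 0.151 and 0.506 CPM in the HuBL livers and 1.40, 1.52, 4.13 and 12.3 CPM in the BT3xHuBL livers, with replicates 3 and 4 the highest, and its log2 fold change was 2.95 (SE 0.87), or 1.90 without replicate 4. Members of these families resemble each other, and their counts may be shared.

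Fmo2, a flavin monooxygenase (chr1:162874317-162898726, protein coding), was at 3.34, 3.32, 4.29 and 3.71 CPM in the HuBL livers and 10.6, 7.34, 11.997 and 19.04 CPM in the BT3xHuBL livers. Its log2 fold change was 1.74 (SE 0.27), 1.44 without BT3xHuBL replicate 4, and its adjusted p was 0.134 in edgeR and 1.32e-06 in DESeq2, and 0.0142 in edgeR without BT3xHuBL replicate 2. Steap2, a metalloreductase (chr5:5664829-5694578, protein coding), was at 4.86, 2.93, 1.73 and 2.93 CPM in the HuBL livers and 11.8, 8.06, 9.80 and 16.005 CPM in the BT3xHuBL livers, a log2 fold change of 1.86 (SE 0.30). Rab11fip4, an effector of vesicle recycling, averaged 0.988 ± 0.319 CPM in HuBL and 2.99 ± 0.784 CPM in BT3xHuBL, and Ptgfrn, a partner of membrane tetraspanins, averaged 1.44 ± 0.335 CPM in HuBL and 3.43 ± 1.04 CPM in BT3xHuBL. Other higher genes of smallest p differed by less than 1 log2 unit: Mmp14, a membrane-bound matrix protease, at 33.4 ± 3.21 CPM in HuBL and 50.3 ± 7.95 CPM in BT3xHuBL, and Eif4ebp2, a brake on translation, at 26.4 ± 4.92 CPM in HuBL and 39.3 ± 1.55 CPM in BT3xHuBL. Tmtc2, Alg10b, Sema6d, Cdc42bpa and Ncdn had log2 fold changes of 0.65, 0.64, 0.62, 0.44 and 0.55.

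Among the lower genes of smallest p, Slc25a51, the mitochondrial NAD carrier (chr4:45395923-45408766, protein coding), was at 67.5, 67.2, 58.3 and 61.8 CPM in the HuBL livers and 41.9, 46.1, 39.9 and 46.5 CPM in the BT3xHuBL livers, a log2 fold change of −0.55 (SE 0.09). Its adjusted p was 0.134 in edgeR and 2.81e-05 in DESeq2. Serpina5, the protein C inhibitor, was at 2.33, 3.09, 2.03 and 1.97 CPM in the HuBL livers and 0.486, 0.595, 0.839 and 0.119 CPM in the BT3xHuBL livers, the most negative log2 fold change of these 15, −2.20 (SE 0.41). Pycard, the adaptor of inflammasomes, averaged 3.70 ± 0.753 CPM in HuBL and 1.67 ± 0.195 CPM in BT3xHuBL, and Igfbp3, which binds insulin-like growth factors, averaged 29.7 ± 2.04 CPM in HuBL and 20.6 ± 1.86 CPM in BT3xHuBL. Tob1, an antiproliferative protein, was at 167, 169, 169.8 and 167 CPM in the HuBL livers and 132, 111, 95.4 and 122 CPM in the BT3xHuBL livers, and its HuBL livers were nearly equal. Pla1a, a phosphatidylserine lipase, Ptp4a1, a phosphatase, and Prnp, the prion protein, had log2 fold changes of −0.40, −0.57 and −0.47. All 30 genes of the 2 groups were separated, beside 2.99% (higher) and 3.58% (lower) of all features. They were picked by smallest p in the same libraries, so their separation adds no support. None of them passed edgeR's test. Names of H2-D1, Ptp4a1, Prnp, Ugt1a1, Alg10b, Cdc42bpa, Glul, Gls2, Il10ra and Tagln carry a suffix that the labels do not explain. So do those of Hadha, Sds, Foxp3, Xist, Cela2a and Ckm, among others. The suffix was read as an overlap with another feature, so part of these counts may belong to a neighbour.

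**Figure D3:**
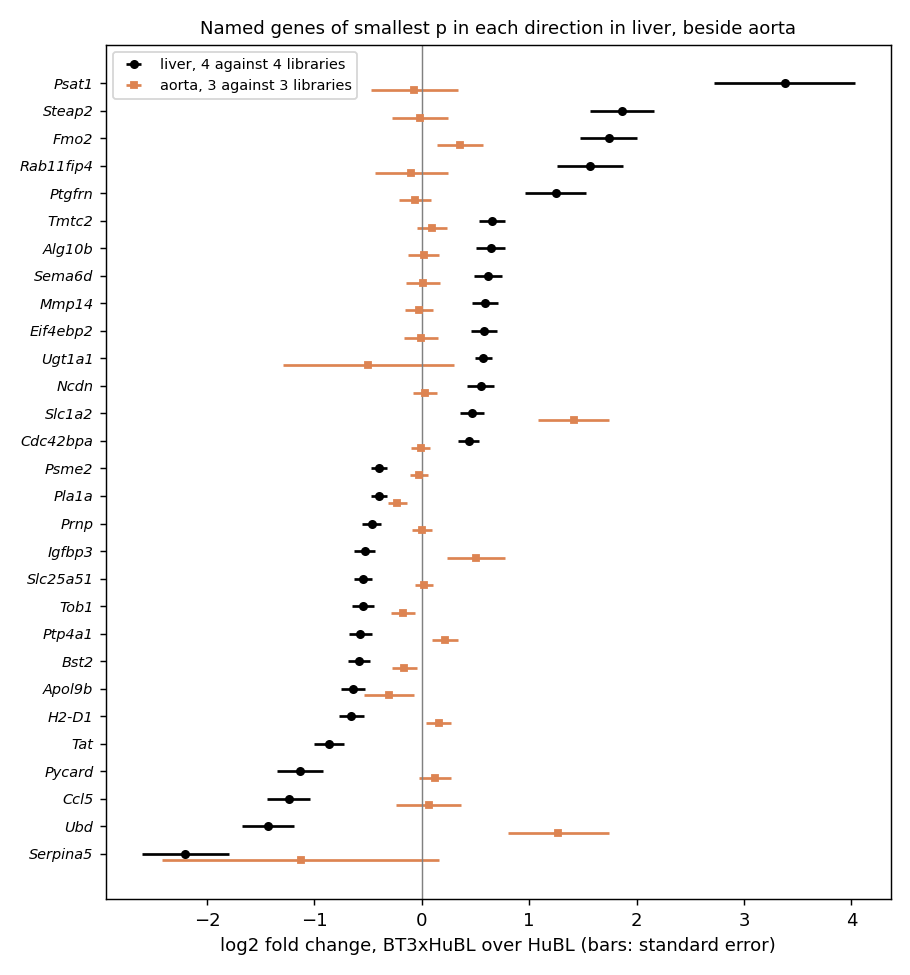
Log2 fold change of BT3xHuBL over HuBL (horizontal axis) for the named genes among the 15 of smallest p in each direction in liver, with black circles for liver (4 against 4 libraries), orange squares for aorta (3 against 3) and bars for standard errors. Tat has no square because it had no count in aorta. Psat1 stands at 3.38 in liver, and Ubd at −1.43 in liver and 1.27 in aorta.

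In aorta most of these 30 genes had log2 fold changes closer to 0 than in liver. The genes were picked by their liver p, which by itself favours larger differences in liver. Their values therefore cannot show whether the tissues differ. The difference between tissues did not pass its own test. No feature of 14912 had a tissue by genotype interaction at an adjusted p of 0.05 in edgeR (0% called), and 1217 (8.16%) had an unadjusted p under 0.05. Without BT3xHuBL liver replicate 2, the number that passed was 3. Ubd had a log2 fold change of −1.43 (SE 0.24) in liver and 1.27 (SE 0.47) in aorta (interaction adjusted p 0.354). H2-D1 had −0.65 (SE 0.11) in liver and 0.16 (SE 0.12) in aorta (adjusted p 0.217). Pycard had −1.13 (SE 0.22) and 0.12 (SE 0.15) (adjusted p 0.217). Ighm was lower in both tissues, with −1.86 (SE 0.42) in liver and −2.12 (SE 0.55) in aorta (adjusted p 0.969), while Ighg2b had 0.93 (SE 0.37) and −2.76 (SE 0.67) (adjusted p 0.460). Liver and aorta libraries of one number may or may not share an animal, which the labels do not say.

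Energy and stress genes differed by small amounts. Of 30 nuclear genes of the respiratory chain 28 were below 0, with a median of −0.19, and 4 were separated and lower (13.3%, beside 3.58%). Cycs, cytochrome c, averaged 9.98 ± 0.506 CPM in HuBL and 6.41 ± 0.980 CPM in BT3xHuBL, and Cox5a, a subunit of cytochrome oxidase, averaged 168 ± 17.5 CPM in HuBL and 132 ± 14.1 CPM in BT3xHuBL. Of 25 heat shock and chaperone genes 19 were below 0, with 1 separated and lower (4%, beside 3.58%). Hspe1, the mitochondrial co-chaperonin, averaged 34.96 ± 1.48 CPM in HuBL and 24.9 ± 5.17 CPM in BT3xHuBL, and Hspb1, a small heat shock protein, averaged 9.95 ± 2.69 CPM in HuBL and 5.91 ± 1.78 CPM in BT3xHuBL with overlap. Of 19 p53 targets 15 were below 0, with a median of −0.34 and 1 separated and lower (5.26%, beside 3.58%; 2 without BT3xHuBL replicate 4, beside 5.48%). The one gene separated with all libraries was Trp53inp1, a regulator of autophagy and cell death, at 202, 240.3, 259 and 345 CPM in the HuBL livers and 160.4, 161, 110.3 and 136 CPM in the BT3xHuBL livers, a log2 fold change of −0.88 (SE 0.17). Fas, a death receptor, averaged 39.8 ± 2.82 CPM in HuBL and 31.3 ± 4.72 CPM in BT3xHuBL with overlap.

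Few markers of stellate cells, endothelium or bile ducts were separated. Of 38 genes of stellate cells, collagen and fibrosis 32 were above 0, with a median of 0.26 that stayed at 0.21 to 0.40 with each library left out, and 1 was separated and higher (2.63%, beside 2.99%) and 1 lower (2.63%, beside 3.58%). Reln, made by stellate cells, averaged 21.03 ± 3.37 CPM in HuBL and 31.7 ± 6.77 CPM in BT3xHuBL with overlap, Hgf, the hepatocyte growth factor, 1.37 ± 0.375 CPM in HuBL and 2.45 ± 0.405 CPM in BT3xHuBL, and Tagln, of smooth muscle, 10.3 ± 1.94 CPM in HuBL and 6.91 ± 1.36 CPM in BT3xHuBL. Of 27 endothelial genes 14 were above 0 and 3 were separated and higher (11.1%, beside 2.99%), with none lower and a median of 0.000313. Without BT3xHuBL replicate 4, whose summed level of this list stood above the others, 3 were separated and higher (beside 5.52%) and 4 lower (beside 5.48%), and the median was −0.164. Stab2, the scavenger receptor of sinusoids, was at 26.9, 28.8, 27.997 and 30.9 CPM in the HuBL livers and 37.4, 37.02, 32.4 and 42.2 CPM in the BT3xHuBL livers, and Flt1, a VEGF receptor, averaged 3.11 ± 0.640 CPM in HuBL and 4.66 ± 1.05 CPM in BT3xHuBL. Of 17 bile duct genes 14 lay above 0 and 1 was separated and higher (5.88%, beside 2.99%), with none lower. The median was 0.58, but 0.089 without BT3xHuBL replicate 1. Epcam was at 2.59, 1.08, 1.58 and 2.19 CPM in the HuBL livers and 6.50, 2.71, 2.52 and 2.20 CPM in the BT3xHuBL livers, and Krt23 at 0.694, 0.309, 0.376 and 0.788 CPM in the HuBL livers and 2.67, 0.529, 1.03 and 0.833 CPM in the BT3xHuBL livers, so that replicate was the highest for both.

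Kupffer cells, the resident macrophages, showed no separated marker among 23, of which 16 were below 0, with a median of −0.086. Without BT3xHuBL replicate 4 the median was −0.138 and 1 was separated and lower (beside 5.48%). Adgre1 (Emr1 in the table, F4/80) averaged 9.88 ± 1.78 CPM in HuBL and 14.2 ± 3.13 CPM in BT3xHuBL and Cd163, a hemoglobin scavenger receptor, 0.856 ± 0.130 CPM in HuBL and 1.72 ± 1.04 CPM in BT3xHuBL, both with overlap. Lists of exocrine pancreas, muscle and adipocyte genes were partly detected. Of 20 matched pancreas genes 15, Prss2 among them, had no count in any liver, while Cela1, an elastase, was at 16.03, 20.8, 23.1 and 26.5 CPM in the HuBL livers and 14.1, 13.9, 20.8 and 19.5 CPM in the BT3xHuBL livers and Cela2a had 7 to 15 counts in each liver. Of 17 muscle genes 2 passed the count filter, among them Des, desmin, which stellate cells also make, at 5.86 ± 0.557 CPM in HuBL and 5.57 ± 0.879 CPM in BT3xHuBL with overlap, and Ckm had 1 count in 1 liver. Of 15 adipocyte genes 8 passed the filter, among them Car3, a carbonic anhydrase that hepatocytes also express, at 2862, 3864, 3695 and 4030.0 CPM in the HuBL livers and 2604, 1778, 3271 and 1565 CPM in the BT3xHuBL livers, while Adipoq had 1 count in 1 liver. Gpc3, an oncofetal proteoglycan, was at 0.189, 0.232, 0.978 and 0.956 CPM in the HuBL livers and 2.31, 1.52, 3.74 and 1.37 CPM in the BT3xHuBL livers and separated. The values of HuBL replicates 1 and 2 stand for 3 counts each. Of 16 tested preneoplastic and fetal liver genes, 10 were above and 6 below 0. Gpc3 was the 1 separated and higher (6.25%, beside 2.99%). The median of that list was 0.086, but −0.157 without BT3xHuBL replicate 1.

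Acute phase proteins depended on one liver. Of 28 tested genes 21 lay above 0 and the median was 0.38, but −0.0124 without BT3xHuBL replicate 4, and none was separated with it (2 lower without it, beside 5.48%). Saa2 was at 108, 84.2, 68.03 and 77.02 CPM in the HuBL livers and 47.1, 47.7, 47.99 and 2582 CPM in the BT3xHuBL livers, and Lcn2, lipocalin 2, at 36.2, 55.95, 24.8 and 33.6 CPM in the HuBL livers and 41.8, 29.1, 18.3 and 577 CPM in the BT3xHuBL livers. Without that library the log2 fold changes of Saa1, Saa2 and Lcn2 were −0.56, −0.83 and −0.34, against 2.61, 3.01 and 2.15 with it. C2, of the complement system, averaged 222 ± 17.3 CPM in HuBL and 183 ± 16.1 CPM in BT3xHuBL, and Serpina1c, an alpha-1-antitrypsin gene with close copies, averaged 3363 ± 232 CPM in HuBL and 2682 ± 191 CPM in BT3xHuBL. Both were separated and lower. Of 27 complement genes 3 were separated and lower (11.1%, beside 3.58%) and none higher.

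**Figure D4:**
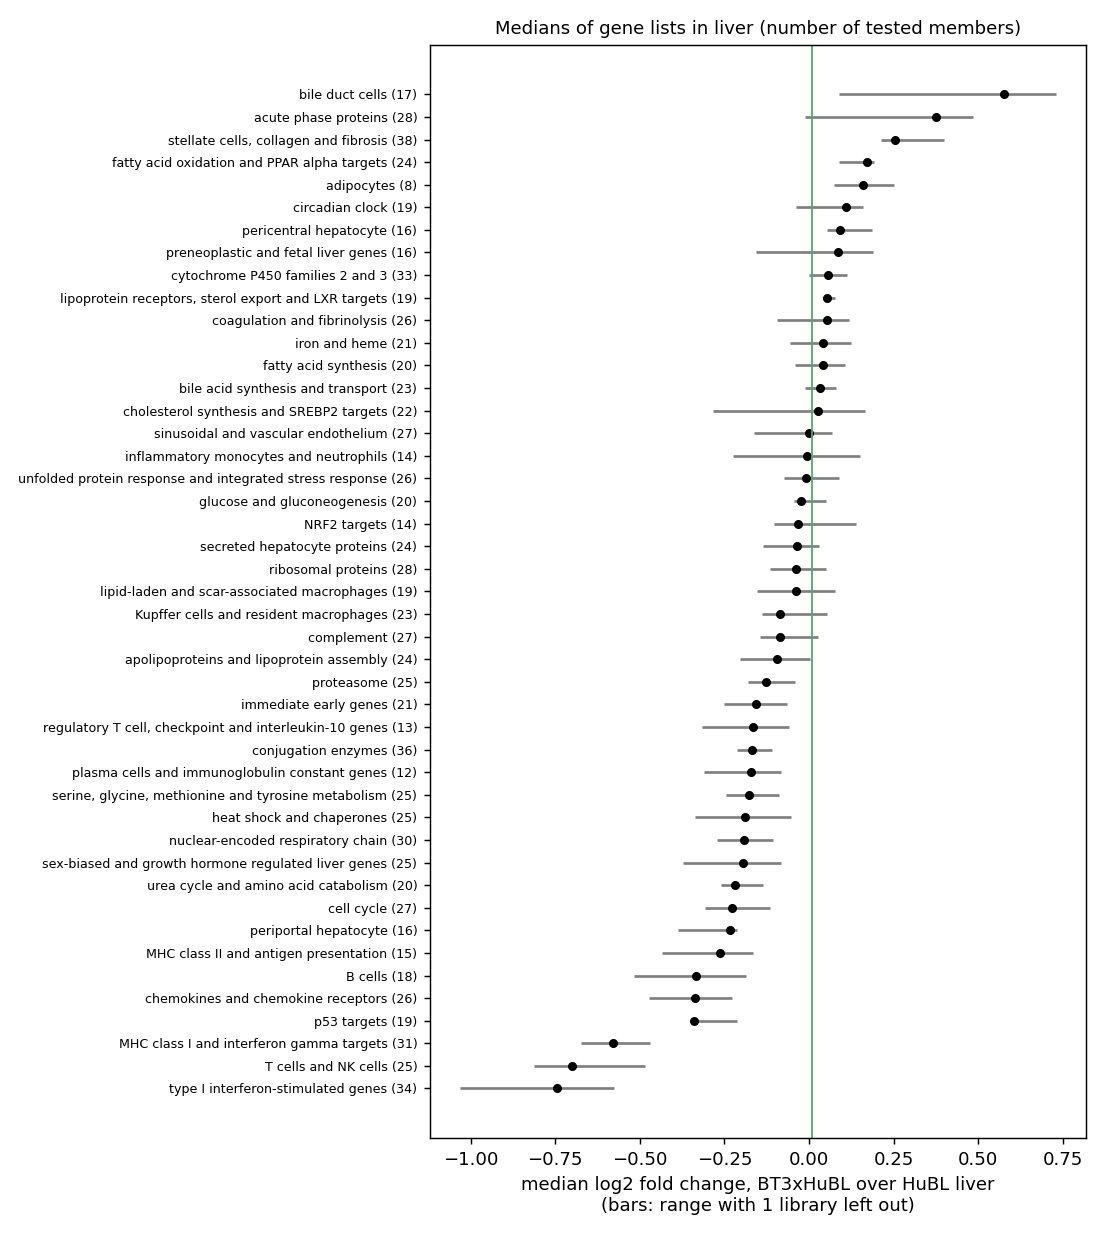
Median log2 fold change of BT3xHuBL over HuBL liver (horizontal axis) for each gene list with at least 5 tested members, whose number is in brackets; grey bars span the medians with 1 library left out and the green line is the median of all features, 0.00915. The type I interferon, T cell and MHC class I lists lie lowest, and the bars of the acute phase and bile duct lists reach −0.0124 and 0.089.

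Across lists, the medians of the type I interferon genes, the MHC class I and interferon gamma genes and the T and NK cell markers lay farthest below the median of all features, and they remained below 0 with each library left out in turn. Their ranges were −1.03 to −0.58, −0.67 to −0.47 and −0.81 to −0.48. The periportal list ranged from −0.39 to −0.21 and the stellate cell list from 0.21 to 0.40. Many other lists crossed 0 when single libraries were left out. Examples are the circadian clock, cholesterol synthesis, fatty acid synthesis, lipoprotein assembly, bile acid and cytochrome P450 lists. Further examples are the complement, coagulation, acute phase, endothelial, Kupffer cell and unfolded protein response lists.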

How the data were processed

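RNA of 8 livers (4 HuBL, 4 BT3xHuBL) was extracted (Qiagen RNeasy) and sequenced from the 3′ end (Lexogen QuantSeq V2), per the labels' protocols. The values deposited by the authors are counts per feature, not normalized. HTSeq 2.0 and GRCm38 were used, per the submitters' processing notes; neither aligner nor strand setting nor annotation is given in the sources used here. Positions in the table did not match GRCm38 gene models, so positions come from GENCODE M21 by symbol, and promoters from RefSeq. Suffixes of feature names were removed; 1114 of 1128 listed gene names matched.

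edgeR 4.0.16 (R 4.3.3; filterByExpr, TMM, robust quasi-likelihood, Benjamini-Hochberg over 12453 features) was the test, with genotype alone as the factor. The interaction with tissue used 14 libraries. The alternatives were DESeq2 1.42.0, limma-voom (limma 3.58.1), 3 other scalings, other filters, no robust weights, both tissues in 1 fit, the replicate number as a block, glmTreat against a fold of 1.5, and each library left out. Exact permutations and plots used R, SciPy 1.17.1 and matplotlib 3.10.9. The edgeR and DESeq2 steps were tested on simulated data. Replicates differed by more than counting noise (chi-square per degree of freedom of 12.2 or more), so none was counted as a copy.

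Genes named are the 15 of smallest p in each direction (mean of at least 1 CPM, predicted gene models left out), up to 3 per list by smallest p, genes of the study's subject, and a few chosen after their values were seen; some genes these rules name are not reported here. Members, the 50 lists and most alternatives were chosen with earlier results of these data known; the count of separated genes was added after no gene passed.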

Additional observations from a re-analysis of the deposited data

Results flagged for a closer look

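In 308 sets of 4 libraries, single genes and list sums taken per genotype, 24 had a highest or lowest library whose gap to the next one was over 0.829 of the whole range. Chance flags about 1 set in 20.

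BT3xHuBL replicate 4 was such a highest library for Saa1 (2418 CPM), Saa2 (2582 CPM), Lcn2 (576.7 CPM) and Cyp4a14 (1280.0 CPM). The same library was highest for the summed CPM of inflammatory monocyte and neutrophil genes (13470.0), secreted hepatocyte proteins (202200.0), endothelial genes (595.8) and mast cell, eosinophil and basophil genes (10.2, from 2 tested genes). The monocyte and neutrophil sum rests mostly on Hp, which had 786554 counts over all livers, beside 2145 for Plac8. Hp and Lcn2 are on the acute phase list too, so that sum largely repeats it. The list's median lay at −0.0065 with this library and at −0.146 without it. Whether this liver held more of these cells was not tested. BT3xHuBL replicate 1 was highest for Epcam (6.50 CPM) and for the MHC class II sum (290.4 CPM). BT3xHuBL replicate 2 was highest for Sult1d1 (178.5 CPM) and the clock sum (852 CPM), and BT3xHuBL replicate 3 for Hspe1 (32.6 CPM).

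HuBL replicate 1 was highest for Tmtc2 (6.69 CPM), Etnppl (188.5 CPM), Serpina1c (3712 CPM), the secreted protein sum (205200.0 CPM) and the proteasome sum (2855 CPM), and lowest for the pericentral sum (10100.0 CPM). HuBL replicate 2 was highest for the bile acid sum (8567 CPM) and lowest for Flt1 (2.16 CPM). HuBL replicate 3 was lowest for Gstk1 (106.3 CPM), and HuBL replicate 4 was lowest for Ighg2b (IGHG2b, 1.63 CPM) and Cycs (9.23 CPM).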

How the results depend on the processing

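edgeR called 0 liver genes with 3 other scalings, other filters, no robust weights and glmTreat, and limma-voom called 0. DESeq2 called 127, the fit of all 14 libraries 5 and the replicate block 10 (5 higher, 5 lower). Replicate numbers did not pair the samples: deviations of same-numbered libraries correlated at −0.0423, 0.159, 0.102 and 0.0686, and for 1 number of 4 the HuBL library correlated best with its own number. Leaving out 1 library gave 0 to 5 calls: 5 without BT3xHuBL replicate 2 (Asns, Psat1, Fmo2, Ccl5 and Irf7), 2 without BT3xHuBL replicate 3, 0 otherwise. The interaction had 0 calls, and 0 to 3 with 1 library left out. Separated features numbered 551 to 783 higher and 590 to 788 lower with 1 library left out, since fewer samples separate more easily, and 265 lower with total counts; without BT3xHuBL replicate 4 they were 695 higher (5.52%) and 691 lower (5.48%). For 104 named genes, 7 of the alternatives reversed a direction, each by leaving out 1 library: Apob (−0.0103 without HuBL replicate 4, −0.0199 without BT3xHuBL replicate 2), Des (0.0184 without BT3xHuBL replicate 2), TCRB_Cb1 (0.0782 without HuBL replicate 3), and Saa1, Saa2 and Lcn2 (−0.559, −0.825 and −0.336 without BT3xHuBL replicate 4). The highest values with 1 library left out were 0.0626, 0.0184, 0.0782, 2.99, 3.40 and 2.52 in that order, and the lowest for Des and TCRB_Cb1 were −0.159 and −0.395. No scaling reversed a named gene. Depth limits scarce genes: Trac rests on 7 to 22 counts a library.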

Other observations

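Clock and sex-biased genes were not described above. Of 19 tested circadian clock genes 12 were above and 7 below 0, with a median of 0.11 and none separated. Nr1d1, the clock repressor REV-ERB alpha, was at 20.4, 47.5, 72.3 and 47.4 CPM in the HuBL livers and 100.4, 139.7, 84.2 and 48.5 CPM in the BT3xHuBL livers, with a log2 fold change of 0.99 (SE 0.44) and an edgeR adjusted p of 0.451. The labels give no hour of collection.

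Of 25 tested genes that differ between male and female liver or depend on growth hormone, 10 were above and 15 below 0. Of these, 1 was separated and higher, Fmo2 (4%, beside 2.99% of all features). Cyp2b9, which is mostly expressed in females, was at 0.0631, 0.926, 0.226 and 2.53 CPM in the HuBL livers and 16.9, 0.529, 0.452 and 44.5 CPM in the BT3xHuBL livers. Replicates 1 and 4 of BT3xHuBL were high and replicates 2 and 3 lay within the HuBL range, so the log2 fold change was 3.98 (SE 1.67) with an edgeR adjusted p of 0.451, and 2.61 without replicate 4. Cyp4a12a, which is mostly expressed in males and has a close copy, was at 327, 404, 391 and 342 CPM in the HuBL livers and 237, 182, 365 and 164 CPM in the BT3xHuBL livers, lowest in replicates 4 and 2 of BT3xHuBL. Counts of Xist were 0 to 3 in each of these libraries.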
